A study of Homo sapiens with 6 samples.

Results

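The genes CNOT6L, EIF4A2, DAG1, DEF8, ZNF605, TMEM63B, CDK7, CALD1, TAF6 and RNF14 each carry a transcript that the study singled out as commonly increased after knockdown of the long noncoding RNA PLANE with either of its siRNAs. The 10 genes were chosen by those named transcripts, and every transcript of each gene was followed here, which gave 180 of the 180253 transcripts in the tables and 10 of 34957 gene identifiers. RNA-seq had been carried out on A549 cells, an established human lung adenocarcinoma line, 48 h after transient transfection with si-ctrl (a control siRNA), si-PLANE.1 or si-PLANE.2. Each group held 2 libraries, numbered 3 and 4 in the si-PLANE.2 group and 1 and 2 in the others, and all groups shared the cell line and the transfection. Both siRNAs were compared with the same si-ctrl libraries. Because the named transcripts were selected on their change in these same 6 libraries, their values, and those of the other transcripts and totals of these genes in the same contrasts, are given as a description. Where the fits across all genes or transcripts call any of them, the count stands beside the share of all features called, and nothing is read from it. PLANE itself was not analysed here.

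A gene makes several transcripts, or isoforms, by using different start sites, splice junctions and end sites. Isoforms can encode different proteins, can retain an intron, or can carry an early stop codon that marks them for nonsense-mediated decay, the pathway that removes such mRNAs. Short reads rarely cover a whole transcript, so reads from bases that isoforms share are divided among them by estimation. The FPKM total of a gene (fragments scaled by transcript length and by library depth) can therefore stay level while the estimated isoforms within it change places. An isoform share, as used here, is the FPKM of a transcript as a percent of the summed FPKM of all transcripts of its gene in the same library.

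The libraries held 10572151 to 20778431 expected counts, which are estimated reads per transcript and need not be whole numbers. In several properties that bear on isoforms, both libraries made after si-PLANE.2 differed from the remaining ones. Transcripts longer than 3000 bases took at least 46.1% of the counts in each library of si-ctrl or si-PLANE.1, against 33.5% and 34.2% with si-PLANE.2. The length that the FPKM values subtract from each transcript, which reflects fragment size, had a median of 251 to 252 bases in the first 4 libraries and of 232 and 234 bases in the si-PLANE.2 libraries. The summed level of 14 histone genes whose mRNAs lack a poly(A) tail was 2153 to 3821 FPKM in the first 4 libraries and 53.7 and 48.1 FPKM with si-PLANE.2. Whether these differences come from the siRNA or from how the libraries were made cannot be told apart here. The keratins KRT8 and KRT18, markers of epithelial cells, reached at least 2712 FPKM in every library, whereas EPCAM and CDH1 were at 14.8 to 26.5 and 130 to 160 FPKM in the first 4 libraries and at 2.59 and 2.70, and 36.5 and 35.4 FPKM, with si-PLANE.2. The other listed epithelial markers were KRT19, at 0.76 to 5.38 FPKM over all libraries, and CLDN1, at 35.5 to 62.5 FPKM, with 43.8 and 45.0 after si-PLANE.2. The leukocyte markers PTPRC and CD3E were at or below 0.02 FPKM, while the whole list of 6, which includes CD14, LYZ and CD68, summed to 22.8 to 70.8 FPKM. The 7 fibroblast and endothelial markers in the tables summed to 3.87 to 20.7 FPKM. The p-values below measure the spread between these libraries, which may be technical.

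Of the 10 named transcripts, 6 have a model of the same length in GENCODE v44 on GRCh37, and what sets them apart from their neighbours is small. EIF4A2-002, DEF8-007, TMEM63B-004 and TAF6-007 hold 0 bases that no other modelled transcript of their gene holds. ZNF605-002 has 93 such bases, 1.51% of its length, and CALD1-009 has 115, 2.76% of its length. Both stretches are whole exons, at chr12:133509299-133509391 on the minus strand, all of it coding, and at chr7:134647571-134647685 on the plus strand, of which 96 bases are coding. DEF8-007 starts the exon at chr16:90023919-90024068 later by 30 bases than the full-length ENST00000268676 does. The named TAF6 transcript shares its whole coding sequence and 99.7% of its bases with the most abundant TAF6 isoform, ENST00000453269. Among the isoforms compared, the models of ENST00000453269, ENST00000452438 and ENST00000520135 (TAF6), ENST00000323963 (EIF4A2), ENST00000360187 (ZNF605), ENST00000323267 (TMEM63B) and ENST00000393118 (CALD1) differ in length from the tables. On GRCh37 the named transcripts lie at chr3:186501361-186507686 (EIF4A2-002), chr16:90015203-90034467 (DEF8-007), chr6:44102770-44123256 (TMEM63B-004) and chr7:134576209-134655392 (CALD1-009) on the plus strand, and at chr12:133498048-133532892 (ZNF605-002) and chr7:99704701-99716987 (TAF6-007) on the minus strand.

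The junctions that occur in no other modelled transcript of the gene are the places where a read can tell these isoforms from their neighbours, and those of ZNF605, CALD1 and DEF8 lying in coding sequence are shown here. Each line gives 15 bases of the upstream exon in lower case followed by 15 bases of the downstream exon in capitals, 5′ to 3′ on the transcript, from the GENCODE v44 transcripts on GRCh37.
ZNF605-002, into its own exon: atctggttttcttggGTTTTCAAATTCTCA
ZNF605-002, out of its own exon: atcagaacttttcagAAGTCTGGCTAGATA
CALD1-009, into its own exon: gctcccaaaccttctCTGACCTTCTGTTCC
DEF8-007, past the first 30 bases of the exon: ttctcccgccctgtgCTGCGGCAGGCGATC
EIF4A2-002 and TAF6-007 have no junction of their own among these models. CNOT6L-001 and RNF14-202 have a model of another length, and DAG1-202 and CDK7-001 have none, so no junction is given for them.

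Every named transcript was listed at 0 FPKM in both si-ctrl libraries and above 0 in all 4 knockdown libraries. The study had singled these transcripts out as commonly increased, so this pattern follows in part from that selection. Among the 66780 transcripts that reached 1 FPKM in any library, 0.599% showed this pattern, and among the 100 such transcripts of the 10 genes it was shown by 10, all of them named ones. A count of 0 allows up to 3 counts, which would be 0.0647% of the gene's counts for EIF4A2 in si-ctrl library 2 and 1.42% for CDK7 in si-ctrl library 1, with the other genes and libraries in between. These limits cover counting error only. Over the 10 genes the mean share of the named transcript was higher than in si-ctrl by a median of 8.70 percentage points with si-PLANE.1 (2.83 for CALD1-009 to 23.7 for CDK7-001) and by a median of 15.4 with si-PLANE.2 (3.70 for TMEM63B-004 to 37.7 for CDK7-001). The CDK7-001 entry has no gene identifier and is described further on. The next largest gains were 21.2 for CNOT6L-001 with si-PLANE.1 and 32.1 for ZNF605-002 with si-PLANE.2. The named transcript gained more share than any other isoform of its gene in 8 of 10 genes with si-PLANE.1 and in 6 of 10 with si-PLANE.2.

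**Figure D1:**
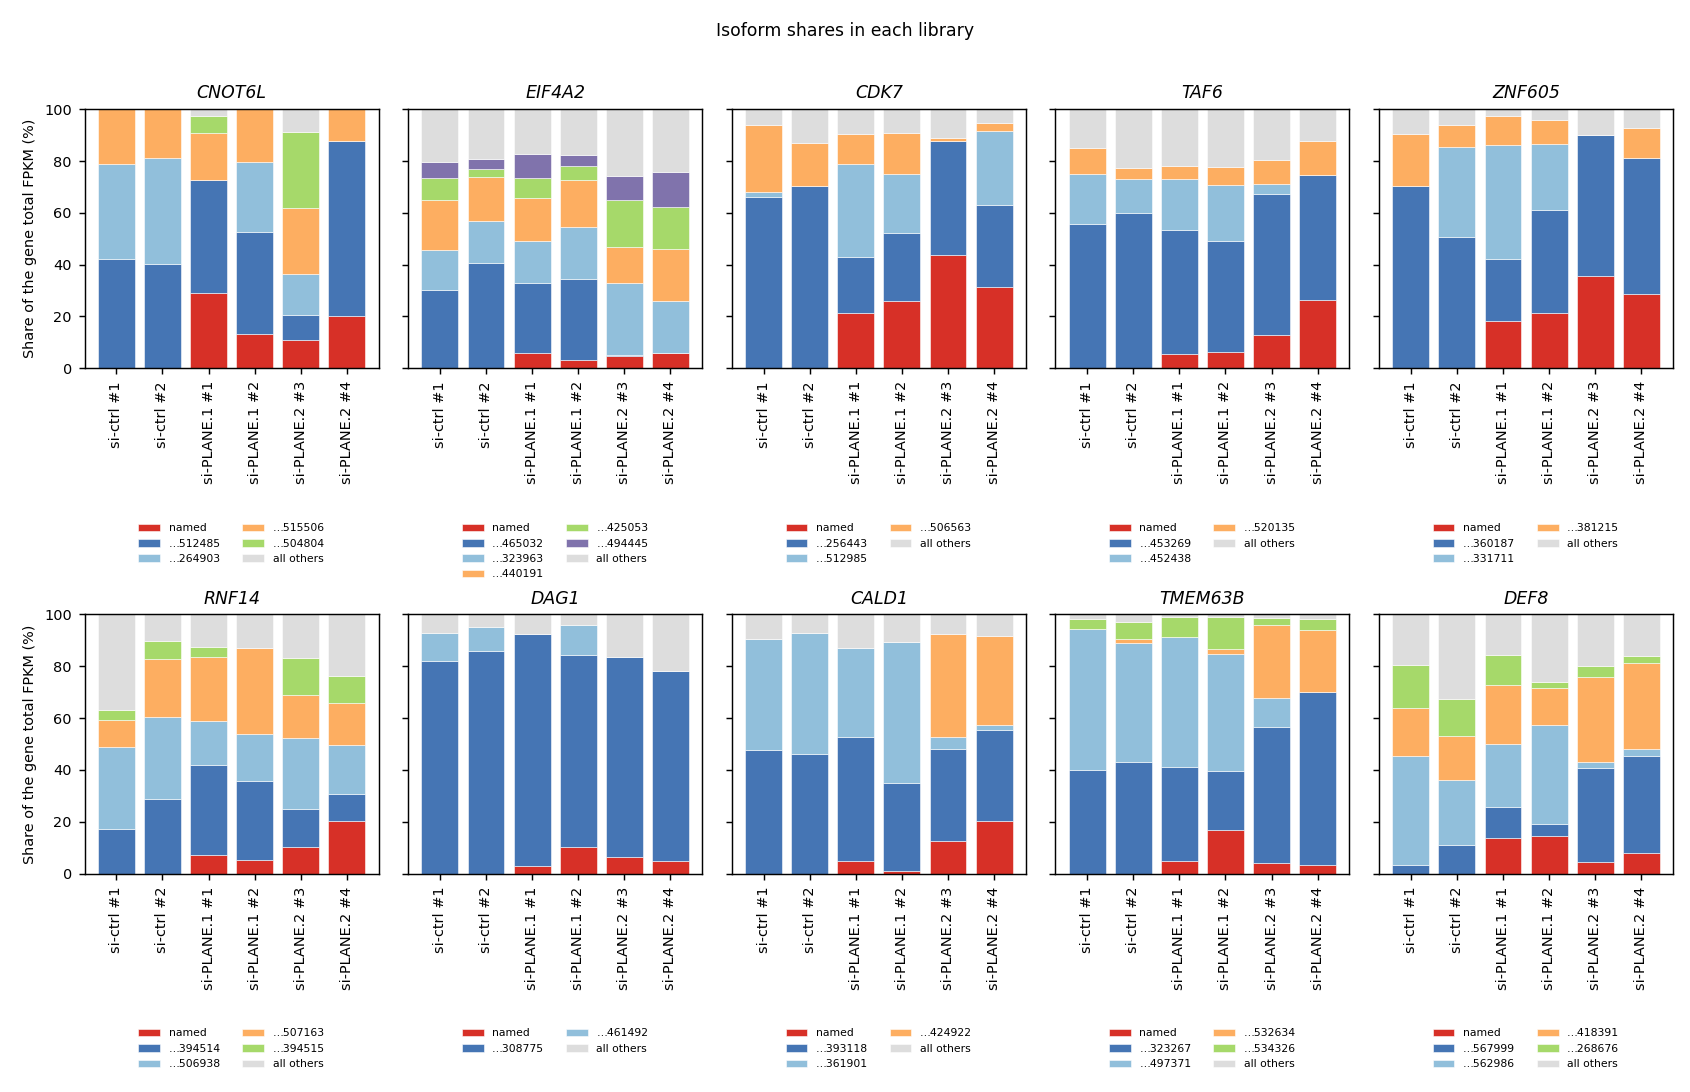
Bars give the percent of the gene total FPKM held by each isoform (y axis) in the 6 libraries (x axis), with the named transcript in red, up to 5 other isoforms whose mean share reached 10% in any group in colours labelled by the last 6 digits of their identifier, and the remainder in grey. The red segment is missing in both si-ctrl libraries of every gene and reaches from 0.864% (CALD1, si-PLANE.1 library 2) to 43.8% (CDK7, si-PLANE.2 library 3) in the others. The named CDK7 entry has no gene identifier and equals ENST00000256443 in every knockdown library.

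By FPKM shares, the isoform whose mean share was lowered most was not the same after both siRNAs for most genes. It was identical for CNOT6L, EIF4A2, DAG1 and CDK7, which is 4 of 10, although for CDK7 this rests on an entry described further on. By shares of expected counts, in which short transcripts weigh less, it was identical for CNOT6L, DAG1, DEF8, ZNF605, CDK7 and TAF6. For DAG1 and DEF8 that isoform was one that FPKM shares picked for neither siRNA. In FPKM shares, the isoform with the largest share in si-ctrl had the greatest loss in 6 genes with si-PLANE.1 and in 4 with si-PLANE.2, and it had a lower mean share in 9 and in 10 genes. The median of that greatest loss was -12.2 percentage points with si-PLANE.1 and -30.6 with si-PLANE.2. The group mean of the summed FPKM of the named transcript and of the isoform with the greatest loss was within 25% of its si-ctrl mean in 7 genes with si-PLANE.1 and in 2 genes with si-PLANE.2. Single libraries could lie further away, as in DAG1, where the sum was 6.15 and 4.63 FPKM in si-ctrl and 1.78 and 10.9 FPKM with si-PLANE.1.

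**Figure D2:**
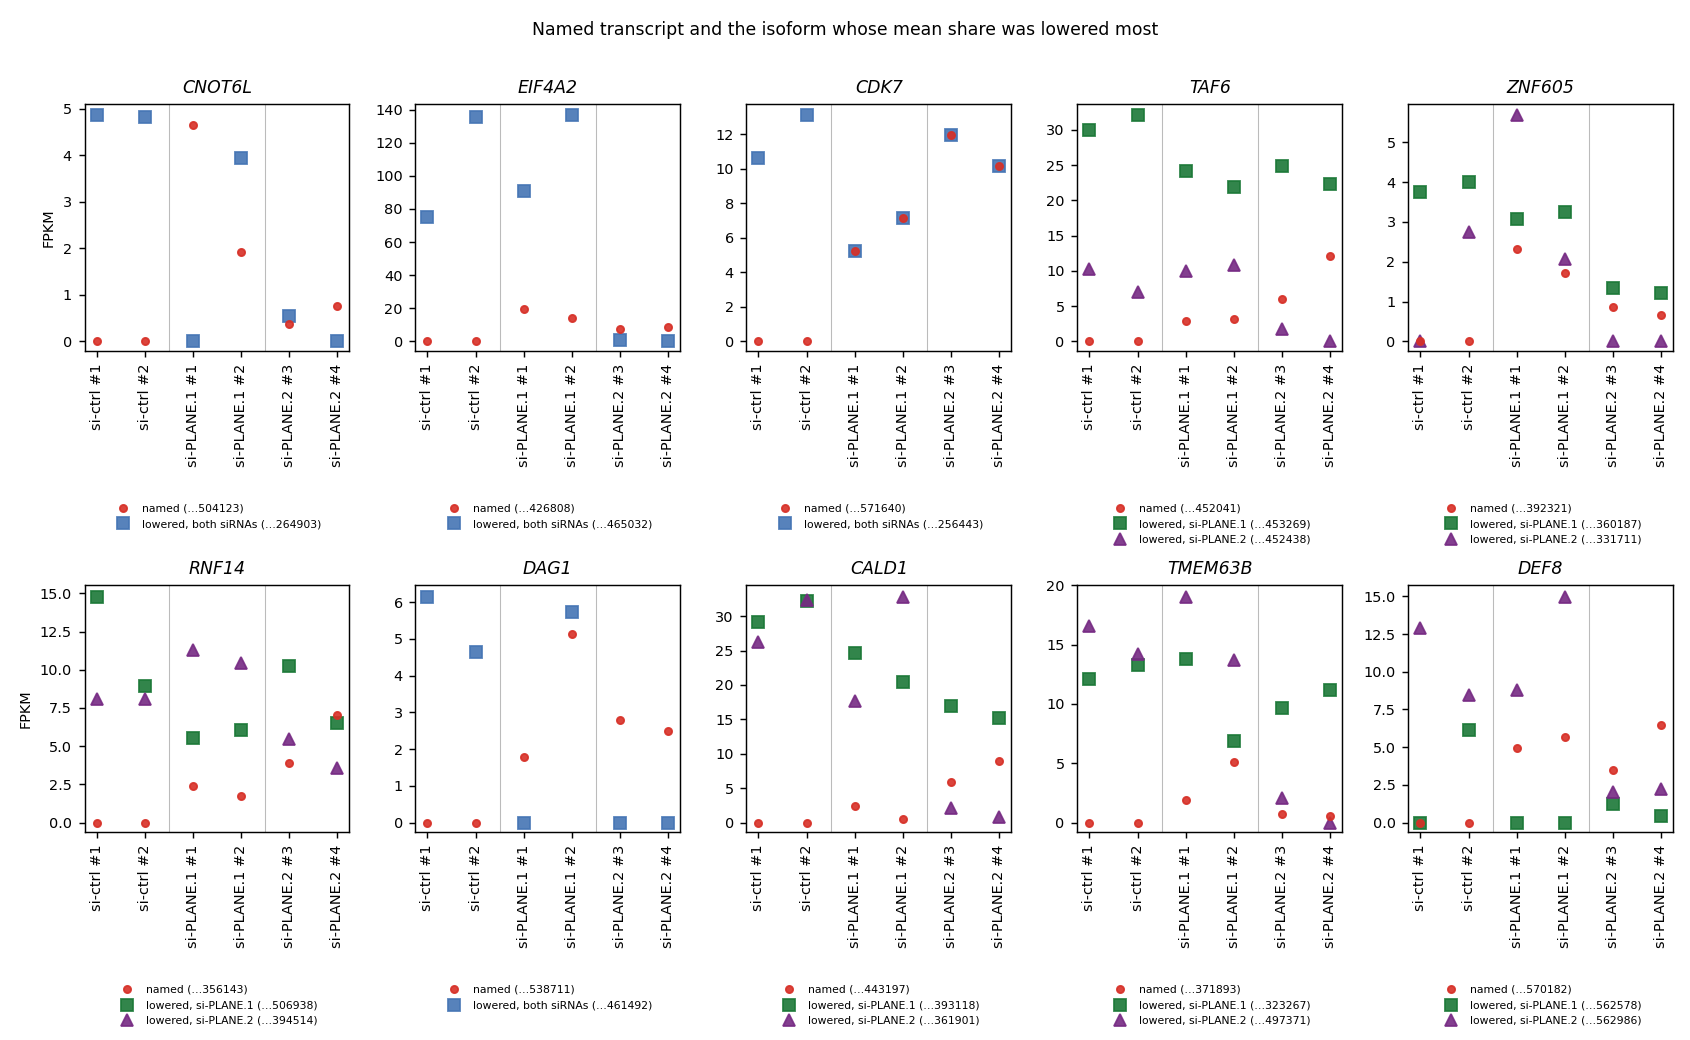
Points give the FPKM (y axis) of the named transcript (red circles) and of the isoform whose mean share was lowered most with both siRNAs (blue squares), with si-PLANE.1 (green squares) or with si-PLANE.2 (purple triangles), in each of the 6 libraries (x axis). In CDK7 the red circles lie on the blue squares in all 4 knockdown libraries, at 5.22 to 11.9 FPKM.

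CNOT6L and EIF4A2 act on mRNA in the cytoplasm: CNOT6L is a deadenylase subunit of the CCR4-NOT complex, which shortens poly(A) tails, and EIF4A2 is an RNA helicase of the translation initiation machinery that has also been linked to CCR4-NOT. CNOT6L-001 (ENST00000504123, 8843 bases) was at 4.66 and 1.93 FPKM with si-PLANE.1 and at 0.38 and 0.76 FPKM with si-PLANE.2. The isoform that lost the most share was ENST00000264903, of almost the same length at 8794 bases, with 4.86 and 4.82 FPKM in si-ctrl, 0 and 3.94 with si-PLANE.1, and 0.55 and 0 with si-PLANE.2. The CNOT6L pair thus exchanged places in si-PLANE.1 library 1, while both isoforms were present in library 2 of the same group. Their sum was 4.86 and 4.82 FPKM in si-ctrl and 4.66 and 5.87 FPKM with si-PLANE.1, against 0.93 and 0.76 FPKM with si-PLANE.2. The other main CNOT6L isoforms, ENST00000512485 and ENST00000515506, had mean shares of 41.3% and 20.0% in si-ctrl. Their mean shares differed from those by 0.18 and -0.90 percentage points with si-PLANE.1. With si-PLANE.2 the CNOT6L shares of the 2 libraries differed from each other more than in any other gene here, since ENST00000512485 held 9.57% in library 3 and 67.8% in library 4. The nonsense-mediated decay transcript ENST00000504804 was at 1.01 FPKM in library 3 and at 0 in library 4, while with si-PLANE.1 it had 1.04 and 0 FPKM and in si-ctrl none.

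EIF4A2-002 (ENST00000426808, a nonsense-mediated decay transcript) was at 19.7 and 13.9 FPKM with si-PLANE.1 and at 7.72 and 8.76 FPKM with si-PLANE.2, or 3.19% to 6.10% of the EIF4A2 total. The isoform with the greatest loss was ENST00000465032, a retained-intron transcript of 578 bases, at 74.97 and 136 FPKM in si-ctrl and 90.7 and 137 FPKM with si-PLANE.1. In the si-PLANE.2 libraries that transcript was at 0.63 and 0 FPKM, a change of -35.1 percentage points in mean share. The loss of share with si-PLANE.1 thus came without a lower FPKM of the retained-intron transcript, whereas with si-PLANE.2 it was nearly missing. The main coding isoforms ENST00000323963 and ENST00000440191 held 15.6% to 19.3% each of the si-ctrl totals. With si-PLANE.2 the largest gain was that of another nonsense-mediated decay transcript, ENST00000425053, by 11.5 percentage points.

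Genes that work with this pair were examined at the level of gene totals, with edgeR's quasi-likelihood test and Benjamini-Hochberg adjustment over all genes tested. With si-PLANE.1, 0 of the 101 tested genes of all 10 partner lists used below passed an adjusted p of 0.05, beside 0.0344% of all genes, while 8 had an unadjusted p under 0.05, beside 1497 of all 14535 genes, and DESeq2 called 1, beside 123 of 14529. With si-PLANE.2, 33 of the 101 rose and 33 fell, beside 31.8% and 32.2% of all genes. Among 10 other CCR4-NOT genes none rose and 6 fell with si-PLANE.2, with a median log2 fold change of -0.61 beside -0.03 over all genes. CNOT3, another subunit, fell by 1.60 ± 0.45 on the log2 scale (SE, adjusted p = 0.0158, edgeR). CNOT4, a ubiquitin ligase, fell by 1.55 ± 0.14 (adjusted p = 7.9e-05, edgeR). CNOT3 did not pass in DESeq2 (adjusted p = 0.0627). Of 12 listed relatives, partners and regulators of the translation initiation machinery, inhibitors among them, 5 rose and 3 fell, with a median of 0.25. EIF4A3, the helicase of the exon junction complex, rose by 1.68 ± 0.10 and EIF4A1, the closest relative of EIF4A2, rose by 1.18 ± 0.10 (adjusted p = 1.4e-05 and 5.6e-05, edgeR).

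CDK7, TAF6 and ZNF605 act in transcription. CDK7 is the kinase of the general factor TFIIH that phosphorylates RNA polymerase II, TAF6 is a core subunit of TFIID, which binds promoters, and ZNF605 is a zinc finger protein of the large KRAB family. The name CDK7-001 was tied to ENST00000571640 by its place in the study's ordered list, and this entry has no gene identifier in the tables. It has the length of the main CDK7 isoform ENST00000256443, 1432 bases. In every knockdown library both entries also had the same value, 5.22 and 7.16 FPKM with si-PLANE.1 and 11.9 and 10.1 FPKM with si-PLANE.2, down to the expected counts of 68.33, 89.26, 297.59 and 221.92. In si-ctrl ENST00000256443 was at 10.7 and 13.1 FPKM while ENST00000571640 was at 0. The sum of both CDK7 entries was thus 10.7 and 13.1 FPKM in si-ctrl, 10.4 and 14.3 FPKM with si-PLANE.1 and 23.9 and 20.3 FPKM with si-PLANE.2, so that the si-ctrl and si-PLANE.1 sums overlapped. Across the tables, 1452 pairs of transcripts had the same length and the same counts in both si-PLANE.2 libraries (at least 5 counts, equal within 0.011). In si-ctrl library 1, 1093 of the 1097 pairs that reached 5 counts were again equal, and in library 2, 1105 of 1109. Only 3 of these pairs had 1 entry at 0 in both si-ctrl libraries, and the CDK7 pair was among them. Whether both entries stand for the same sequence was not tested.

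CDK7 also had a short retained-intron transcript, ENST00000512985, of 261 bases, at 0.33 and 0 FPKM in si-ctrl, 8.79 and 6.32 with si-PLANE.1, and 0 and 9.13 with si-PLANE.2. It made the largest gain in share with si-PLANE.1, by 28.5 percentage points, and its si-PLANE.2 libraries disagreed. These FPKM values rest on few reads. Its expected counts were 0.13 and 0 in si-ctrl, 2.79 and 1.94 with si-PLANE.1, and 0 and 6.53 with si-PLANE.2. The loss of ENST00000256443 with si-PLANE.2 rests on counting ENST00000571640 as a separate isoform. Without that entry ENST00000256443 held 66.0% and 70.3% of the CDK7 total in si-ctrl, 27.2% and 35.2% with si-PLANE.1, and 78.0% and 46.1% with si-PLANE.2, where the values lay on both sides of si-ctrl. The si-PLANE.1 shares are no clean measure of ENST00000256443. Their totals still hold the 8.79 and 6.32 FPKM of ENST00000512985, and the equal values of ENST00000571640, 5.22 and 7.16 FPKM, are left out. Without ENST00000571640 the CDK7 total was 16.2 and 18.7 FPKM in si-ctrl, 19.2 and 20.4 with si-PLANE.1, and 15.3 and 21.98 with si-PLANE.2. These totals, and the shares in them, leave out the entry's values in every knockdown library and nothing in si-ctrl. They are therefore no corrected totals. Of 9 other TFIIH genes, 4 rose and 2 fell with si-PLANE.2, beside 31.8% and 32.2% of all genes. Their median log2 fold change of 0.43 became -0.07 with limma on log2(FPKM + 1). GTF2H5, the smallest core subunit, rose by 1.08 ± 0.21 (adjusted p = 0.0030, edgeR) without passing in limma (adjusted p = 0.0502). ERCC2, the XPD helicase, rose by 0.94 ± 0.12 (adjusted p = 3.1e-04, edgeR) but had a difference of -0.07 in the limma fit.

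TAF6-007 (ENST00000452041) was at 2.87 and 3.15 FPKM with si-PLANE.1 and at 5.96 and 12.1 FPKM with si-PLANE.2. With si-PLANE.1 the greatest loss was that of ENST00000453269, the main coding isoform, at 30.03 and 32.1 FPKM in si-ctrl, 24.2 and 21.9 with si-PLANE.1, and 24.8 and 22.4 with si-PLANE.2. These TAF6 isoforms have the same coding sequence and differ in a junction ahead of it, and their sum went from 30.03 and 32.1 FPKM in si-ctrl to 27.0 and 25.1 with si-PLANE.1 and 30.8 and 34.5 with si-PLANE.2. With si-PLANE.2 the greatest loss of FPKM share was that of the 563-base ENST00000452438, at 10.3 and 7.01 FPKM in si-ctrl and 1.81 and 0 with si-PLANE.2. It had 43.67 and 31.07 expected counts in si-ctrl, of 1096 and 1287 for TAF6. By shares of expected counts the greatest loss was that of ENST00000453269 with both siRNAs. Among 14 other tested TFIID genes, 3 rose and 7 fell with si-PLANE.2, beside 31.8% and 32.2% of all genes. The median was -0.37. TAF11 rose by 1.19 ± 0.15 and TAF3, which reads trimethylated lysine on histone H3, fell by 1.13 ± 0.11 (adjusted p = 4.2e-04 and 1.0e-04, edgeR).

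ZNF605-002 (ENST00000392321) was at 2.33 and 1.72 FPKM with si-PLANE.1 and at 0.87 and 0.66 FPKM with si-PLANE.2. It held 18.1% and 21.2% of the ZNF605 total with si-PLANE.1 and 35.5% and 28.7% with si-PLANE.2, although its FPKM was lower with si-PLANE.2. The main isoform ENST00000360187, which lacks the 93-base exon, had 3.75 and 4.00 FPKM in si-ctrl, 3.08 and 3.24 with si-PLANE.1, and 1.34 and 1.21 with si-PLANE.2, so that no si-ctrl library overlapped a knockdown library. The 838-base ENST00000331711 ranged from 0 to 2.75 FPKM within si-ctrl alone. It gained 17.4 percentage points of mean share with si-PLANE.1 and had the greatest loss with si-PLANE.2, where it was at 0 in both libraries. By shares of expected counts the greatest loss with both siRNAs was that of ENST00000360187. Of 6 other zinc finger genes of its cluster at 12q24.33, none rose and 2 fell with si-PLANE.2, beside 31.8% and 32.2% of all genes. ZNF891 fell by 1.92 ± 0.31 and ZNF84 by 0.65 ± 0.14 (adjusted p = 0.0012 and 0.0045, edgeR). ZNF84 did not pass in limma (adjusted p = 0.163), and the median of -0.64 over the list became 0.09 with limma.

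RNF14 is a ubiquitin ligase of the RING-between-RING (RBR) class and was first described as a coactivator of the androgen receptor. RNF14-202 (ENST00000356143) was at 2.40 and 1.73 FPKM with si-PLANE.1 and at 3.89 and 7.03 FPKM with si-PLANE.2. The greatest loss with si-PLANE.1 was that of the 582-base coding transcript ENST00000506938, at 14.8 and 8.92 FPKM in si-ctrl and 5.56 and 6.09 with si-PLANE.1. With si-PLANE.2 it was that of ENST00000394514, of 2905 bases, at 8.11 and 8.09 FPKM in si-ctrl, 11.3 and 10.4 with si-PLANE.1, and 5.46 and 3.56 with si-PLANE.2. This RNF14 isoform was therefore higher than in si-ctrl with si-PLANE.1 and lower with si-PLANE.2, while RNF14-202 was higher with both. The largest share of any RNF14 isoform in any library was 34.4%, and the si-ctrl libraries themselves differed in the share of ENST00000507163, at 10.5% and 22.3%. Of 12 other RBR ligases, 2 rose and 4 fell with si-PLANE.2, beside 31.8% and 32.2% of all genes, with a median of -0.28. Limma called 1 higher and 7 lower, beside 3008 and 5105 of all 14168 genes, with a median of -0.65. RNF217 fell by 1.78 ± 0.11 and ARIH1, which works with cullin ligases, fell by 1.11 ± 0.09 (adjusted p = 1.7e-05 and 5.2e-05, edgeR).

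DAG1, CALD1 and TMEM63B belong to the cell surface and the cytoskeleton. DAG1 encodes dystroglycan, which links the actin cytoskeleton through dystrophin to laminin outside the cell, CALD1 encodes caldesmon, an actin-binding regulator of contraction, and TMEM63B encodes a mechanically gated ion channel. DAG1 was dominated by ENST00000308775, which held 73.3% to 89.4% of the total in all 6 libraries. DAG1-202 (ENST00000538711) was at 1.78 and 5.14 FPKM with si-PLANE.1 and at 2.78 and 2.48 FPKM with si-PLANE.2, beside 53.5 and 37.7 FPKM of the dominant isoform with si-PLANE.1 and 34.1 and 37.6 with si-PLANE.2. The greatest loss was that of a 580-base transcript, ENST00000461492, at 6.15 and 4.63 FPKM in si-ctrl, 0 and 5.72 with si-PLANE.1, and 0 in both si-PLANE.2 libraries. These values rest on few reads, with 27.6 and 21.67 expected counts in si-ctrl, of 3500 and 3274 for DAG1. By shares of expected counts the greatest loss with both siRNAs was that of ENST00000308775. The share of DAG1-202 reached at most 10.1%, in si-PLANE.1 library 2, where the dominant isoform was at its lowest FPKM within that group. Of 17 tested dystroglycan partners and glycosylating enzymes, 8 rose and 6 fell with si-PLANE.2, beside 31.8% and 32.2% of all genes. The median was -0.17. Limma called 2 higher and 7 lower, beside 3008 and 5105 of all 14168 genes, with a median of -0.06. POMK, the kinase of the dystroglycan sugar chain, fell by 1.88 ± 0.28 (adjusted p = 9.0e-04, edgeR).

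CALD1-009 (ENST00000443197, a nonsense-mediated decay transcript) was at 2.47 and 0.52 FPKM with si-PLANE.1 and at 5.91 and 8.92 FPKM with si-PLANE.2. In si-ctrl, CALD1 was almost evenly made of ENST00000361901, at 26.3 and 32.4 FPKM, and ENST00000393118, at 29.1 and 32.2 FPKM. With si-PLANE.1 these were at 17.6 and 32.9 FPKM and at 24.7 and 20.4 FPKM, so that ENST00000361901 overlapped its si-ctrl values and ENST00000393118, which had the greatest loss of mean share, did not. That loss came from library 2, since the share of ENST00000393118 was 47.7% and 46.3% in si-ctrl and 47.9% and 33.9% with si-PLANE.1. With si-PLANE.2, ENST00000361901 was at 2.15 and 0.77 FPKM, and ENST00000424922, a 2124-base coding isoform listed at 0 in the other 4 libraries, was at 18.9 and 15.1 FPKM. The CALD1 share that ENST00000361901 gave up with si-PLANE.2, -41.6 percentage points, stood beside gains of 37.1 for ENST00000424922 and 16.4 for CALD1-009. All 2124 bases of ENST00000424922 lie within the CALD1-009 model. Of 13 tested contractile actin filament genes, 9 rose and none fell with si-PLANE.2 in edgeR, beside 31.8% and 32.2% of all genes. The median was 0.54. Limma on log2(FPKM + 1) called 6 higher and 2 lower, beside 3008 and 5105 of all 14168 genes. MYL6, a myosin light chain, rose by 2.82 ± 0.11 and TPM2, a tropomyosin, rose by 2.24 ± 0.12 (adjusted p = 4.3e-06 and 1.2e-05, edgeR).

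TMEM63B-004 (ENST00000371893) was at 1.86 and 5.10 FPKM with si-PLANE.1 and at 0.72 and 0.58 FPKM with si-PLANE.2. The main long isoform ENST00000323267 had 12.1 and 13.3 FPKM in si-ctrl, 13.8 and 6.90 with si-PLANE.1, and 9.66 and 11.2 with si-PLANE.2. That isoform was lowest in si-PLANE.1 library 2, where TMEM63B-004 was highest. A 616-base nonsense-mediated decay transcript, ENST00000497371, took 46.1% and 54.5% of the TMEM63B total in si-ctrl and was at 2.03 and 0 FPKM with si-PLANE.2, after 14.2 to 16.6 FPKM in si-ctrl and 13.7 and 19.1 with si-PLANE.1. With si-PLANE.2 the 828-base coding ENST00000532634 was at 5.22 and 4.00 FPKM, beside 0 to 0.53 FPKM in the other libraries, and gained more share than TMEM63B-004. Of the paralogs, TMEM63A fell by 0.39 ± 0.13 with si-PLANE.2 (adjusted p = 0.0319, edgeR) without passing in DESeq2 (adjusted p = 0.0633), and TMEM63C differed by -0.71 ± 0.31 (adjusted p = 0.0793, edgeR).

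DEF8 has been described as a protein that acts with PLEKHM1 and RAB7 in the placing of lysosomes, and it carries a Rubicon-homology domain. DEF8-007 (ENST00000570182) was at 4.94 and 5.69 FPKM with si-PLANE.1 and at 3.46 and 6.45 FPKM with si-PLANE.2. The full-length isoform ENST00000268676, which contains every base of DEF8-007, had 5.07 and 4.81 FPKM in si-ctrl, 4.09 and 0.90 with si-PLANE.1, and 3.56 and 2.18 with si-PLANE.2, lower in all 4 knockdown libraries. The greatest losses of DEF8 share were those of short coding fragments, with si-PLANE.1 of the 573-base ENST00000562578, which was at 0 and 6.13 FPKM within si-ctrl, and with si-PLANE.2 of the 468-base ENST00000562986, at 12.9 and 8.44 FPKM in si-ctrl and 2.01 and 2.22 with si-PLANE.2. By shares of expected counts the greatest loss with both siRNAs was that of the full-length ENST00000268676. The largest gains of DEF8 share with si-PLANE.2, by 29.6 and 15.2 percentage points, were those of other coding transcripts. The 578-base ENST00000567999 was at 1.00 to 4.43 FPKM in the first 4 libraries and at 28.9 and 29.4 FPKM with si-PLANE.2, and the 852-base ENST00000418391 went from 5.64 to 8.36 FPKM in the first 4 libraries to 26.0 and 26.4. DEF8-007 held 4.34% and 8.13% of that higher total, less than with si-PLANE.1. Of 6 lysosome positioning and Rubicon-homology genes, 2 rose and 2 fell with si-PLANE.2, beside 31.8% and 32.2% of all genes. Their median of 0.09 became -0.60 with limma. PLEKHM3 fell by 1.53 ± 0.18 and RUBCN by 0.89 ± 0.14 (adjusted p = 2.8e-04 and 0.0010, edgeR), and RUBCN did not pass in limma (adjusted p = 0.0674).

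With si-PLANE.2 the summed counts of CNOT6L, ZNF605 and CALD1 were lower than in si-ctrl and those of DEF8 and CDK7 were higher, in both libraries of each gene. In the edgeR fit of each siRNA against si-ctrl, the log2 fold changes of the 10 totals lay between -0.34 ± 0.15 (SE) for CALD1 and 0.40 ± 0.18 for EIF4A2 with si-PLANE.1. None of the 10 passed an adjusted p of 0.05 with si-PLANE.1, beside 0.0344% of all 14535 genes, while 3 had an unadjusted p under 0.05, beside 1497 of all genes, and DESeq2 also called none of the 10. With si-PLANE.2, 5 of 10 passed, beside 64% of all 14168 genes. The higher ones were DEF8 and CDK7, beside 31.8% of all genes, and the lower ones were CNOT6L, ZNF605 and CALD1, beside 32.2%. The values were 1.38 ± 0.10 for DEF8, 0.89 ± 0.15 for CDK7, -2.004 ± 0.11 for CNOT6L, -0.83 ± 0.15 for ZNF605 and -0.66 ± 0.11 for CALD1. Without the entry ENST00000571640 the log2 fold change of the CDK7 total with si-PLANE.2 was -0.0214, and 4 of the 10 totals passed. That fit drops the entry's 297.59 and 221.92 expected counts from the si-PLANE.2 libraries and none from si-ctrl, so it gives no corrected total. DAG1, TAF6, RNF14, TMEM63B and EIF4A2 had values of -0.01 ± 0.10, 0.15 ± 0.11, 0.07 ± 0.14, -0.14 ± 0.11 and -0.22 ± 0.12 with si-PLANE.2, although a named transcript appeared in each. In bulk samples fewer cells that make an mRNA and less of it per cell cannot be told apart.

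**Figure D3:**
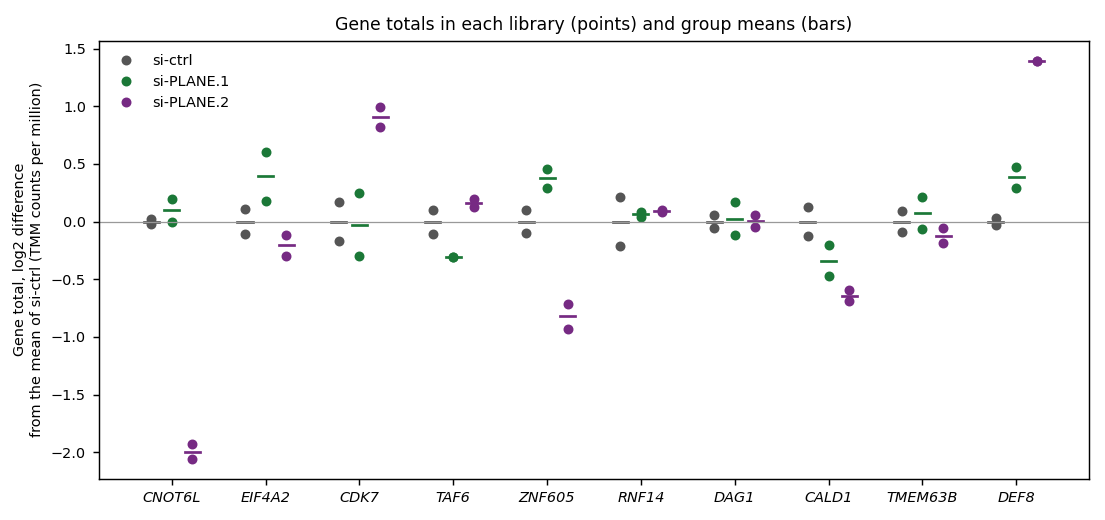
Points give the log2 difference of each gene total (TMM-scaled counts) from the mean of si-ctrl (y axis) in each library, with group means as bars, for the 10 genes (x axis). The si-PLANE.2 libraries of CNOT6L lie at -1.93 and -2.06 and those of DEF8 at 1.39 and 1.40, while the si-PLANE.1 libraries lie between -0.47 and 0.60 in all 10 genes.

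Counts and FPKM gave different sizes for some totals, since FPKM gives short transcripts more weight per read. With si-PLANE.2 the TMEM63B total was 30.4 and 30.9 FPKM in si-ctrl and 18.4 and 16.7 FPKM, a log2 ratio of the means of -0.80 beside -0.14 from counts. The EIF4A2 total was 248 and 335 FPKM in si-ctrl and 161 and 144 FPKM with si-PLANE.2, a log2 ratio of -0.94 beside -0.22. In both genes a short transcript that was abundant in si-ctrl was missing or nearly so with si-PLANE.2. Transcripts under 700 bases held 46.1% and 54.5% of the TMEM63B total in si-ctrl and 11.1% and 0% with si-PLANE.2, and 40.8% and 52.3% of the EIF4A2 total in si-ctrl against 19.0% and 20.1%. In DEF8 such transcripts held 53.1% and 60.9% in si-ctrl and 46.7% and 47.5% with si-PLANE.2. The part that the fragment lengths and long-transcript shares of the si-PLANE.2 libraries had in these values was not tested.

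Taking transcripts one by one, 0 of the 85 tested transcripts of the 10 genes passed with si-PLANE.1, beside 0% of all 57625 transcripts. Of these 85, 15 had an unadjusted p under 0.05, beside 2552 of all transcripts, and DESeq2 called 11, beside 390 of 57611. Named transcripts, selected for a higher level in these same contrasts, are among those tested, so these counts restate the selection in part. With si-PLANE.2, 21 of 88 passed, beside 25.6% of all 56791 transcripts, 12 of them higher, beside 12.9%, and 9 lower, beside 12.7%. When si-PLANE.2 library 3 or library 4 was left out, 0 transcripts of the 10 genes were called, beside 0 and 795 of all transcripts.

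How far the isoform make-up of a gene differs between libraries was summarised as the isoform shift, which is the part of the total that would have to be moved between isoforms to turn the shares of the first library into those of the second, in percentage points. Among 10814 genes with at least 2 transcripts and 1 FPKM in every library, the median shift was 15.0 between the si-ctrl libraries, 14.6 between the si-PLANE.1 libraries and 12.2 between the si-PLANE.2 libraries. Between si-ctrl and si-PLANE.1 libraries it was 15.7, close to the level within a group, and between si-ctrl and si-PLANE.2 libraries it was 32.5. For the 10 genes the corresponding medians were 14.6, 19.0, 18.1, 24.5 and 47.3. The shares of the 10 genes include the named transcript, which was selected for its increase and was at 0 FPKM in si-ctrl alone. Part of their shift between groups is therefore set by the selection and is not a difference from other genes. Every pair of a si-ctrl and a si-PLANE.1 library lay above both within-group pairs for 2 of the 10 genes, CDK7 and TAF6, beside 6.67% of all genes. The CDK7 shares count ENST00000571640 as a separate isoform. They also include ENST00000512985, which had 2.79 and 1.94 expected counts with si-PLANE.1. For si-PLANE.2 every pair with si-ctrl lay above both within-group pairs for 9 of 10 genes, beside 55.7% of all genes. CNOT6L was the exception, with a shift of 67.3 between the si-PLANE.2 libraries themselves and 45.6 to 55.5 from si-ctrl to si-PLANE.2. DAG1 had the smallest shift of the 10 genes from si-ctrl to si-PLANE.2, 21.2 on average.

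**Figure D4:**
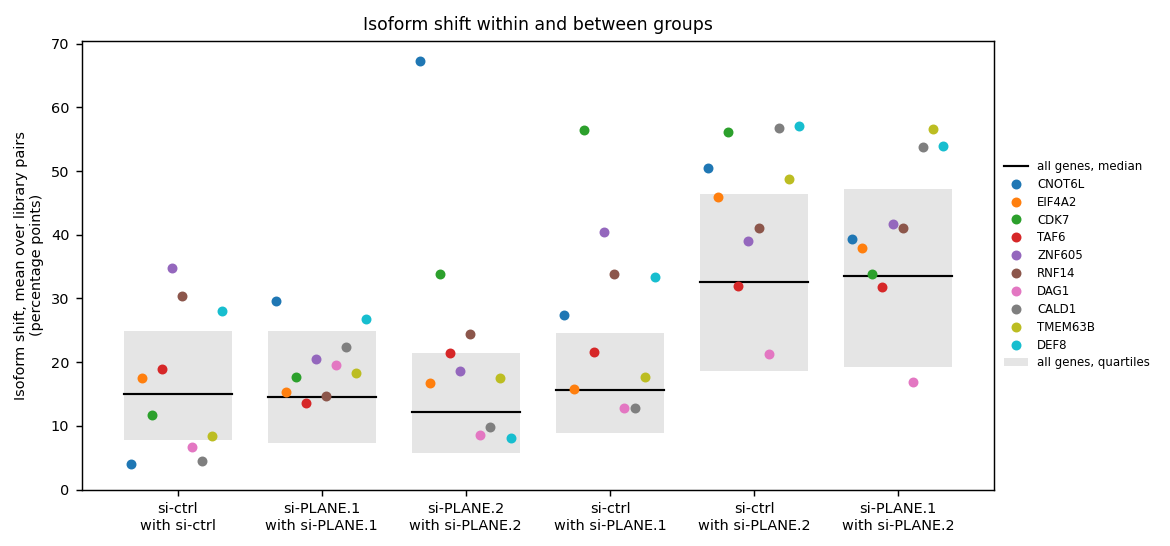
Points give the isoform shift of each of the 10 genes in percentage points (y axis, mean over library pairs) within and between the groups (x axis), and grey bars and black lines give the quartiles and the median over 10814 genes. The all-gene median is 12.2 to 15.7 except in the comparisons that involve si-PLANE.2 and another group, where it is 32.5 and 33.5, and CNOT6L lies at 67.3 between the si-PLANE.2 libraries.

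Listings that switched between 0 and a measurable level were frequent among replicates too. Of the 100 transcripts of these genes that reached 1 FPKM in any library, 9 were at 0 in 1 si-ctrl library and at 1 FPKM or more in the other, beside 8.58% of all such transcripts. The same was seen for 16 in the si-PLANE.1 pair, beside 10.5%, and for 11 in the si-PLANE.2 pair, beside 5.58%. Such switches touched isoforms named above, including ENST00000264903 of CNOT6L, ENST00000461492 of DAG1, ENST00000562578 of DEF8 and ENST00000331711 of ZNF605.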

How the data were processed

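Short-read RNA-seq of A549 cells was used in 3 groups of 2 libraries, assigned from the sample labels. The authors deposited 2 tables with an expected count (an estimated count, not normalized) and an FPKM value (scaled by the authors for effective transcript length and depth) per transcript, and the transcript length. Both tables hold identical si-ctrl values. The processing notes list Trimmomatic 0.30, HISAT2 2.0.1, HTSeq 0.6.1, DESeq and the build hg19, and the tool that made the expected counts is not given in the sources used here. Both rRNA depletion and poly(A) selection appear in the methods, and which was used for which library is not given.

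Shares and the isoform shift were computed from FPKM. Gene totals are sums over the transcripts of a gene identifier, to which ENST00000571640 was added for CDK7, and 16723 of 180253 transcripts had no identifier. Symbols were found for 33692 of 34957 identifiers. Rounded expected counts were tested with edgeR 4.0.16 (TMM, quasi-likelihood) in R 4.3.3, in a fit of 4 libraries per siRNA, for features with a mean of at least 0.5 FPKM, at an adjusted p of 0.05. On simulated data with 200 genes changed 4-fold it recovered 92.5% among 14535 genes for si-PLANE.1 and 94% among 14168 for si-PLANE.2, but 19.5% and 24% among 57625 and 56791 transcripts. DESeq2 1.42.0, limma 3.58.1, other filters and scalings, a joint fit, a replicate block and leaving out each library were the alternatives, and a CDK7 total without ENST00000571640 was an alternative chosen after seeing the data. GENCODE v44 (lifted to GRCh37) has models for 151453 transcripts of the tables, 122844 (81.1%) with the same length.

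The 10 genes, the partner lists and the alternatives were chosen with earlier results of these data known. Text names, for each gene, the named transcript, the isoform with the largest si-ctrl share, the one with the greatest loss per siRNA and, in the text or the plot of shares, isoforms reaching a mean share of 10%, and for each list the 2 called genes with the largest fold change. Results for some items these rules would name are not reported here. With 2 libraries per group precision is low, and counts of 3 mark the floor.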

Additional observations from a re-analysis of the deposited data

Results flagged for a closer look

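For 4 gene totals both si-PLANE.1 libraries lay on one side of the si-ctrl mean and both si-PLANE.2 libraries on the other, which is why they are listed. The difference between the siRNAs was not tested, since the genes had been selected in these contrasts. The mean log2 difference from si-ctrl (TMM-scaled counts) was 0.10 with si-PLANE.1 and -1.99 with si-PLANE.2 for CNOT6L, where si-PLANE.1 library 1 was at 0.0005 and library 2 at 0.20. It was 0.39 and -0.21 for EIF4A2, whose si-ctrl libraries were at -0.11 and 0.11. It was 0.37 and -0.82 for ZNF605, and -0.31 and 0.16 for TAF6.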

How the results depend on the processing

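With expected counts in place of FPKM the median gain of the named transcripts was 14.9 percentage points with si-PLANE.1 and 22.7 with si-PLANE.2. The isoform with the greatest loss by counts was the one picked by FPKM shares in 6 of 10 genes for each siRNA. Of 137 recomputed gains, 124 stayed within 1 SD of the replicates, and their sign is fixed by the selection. With a replicate block, 2 of the 10 gene totals and 1222 of all genes were called with si-PLANE.1, beside 0 and 5, while DESeq2 called 123 genes, limma 1 (log2(FPKM + 1)) and 3 (log2(FPKM + 0.1)), and the fit of all 6 libraries 17. Replicate numbers 1 and 2 share no stated day or culture, and the differences between libraries 1 and 2 correlated at 0.38 across both groups over 14535 genes. Leaving out each library in turn gave 1 to 4 genes with si-PLANE.1. Each of these fits assumes that a lone library varies like the other group. It gave 0 to 19 transcripts of the 10 genes with si-PLANE.2, 0 without library 3 and 0 without library 4, where 0 and 795 of all transcripts were called. DESeq2 called 11 of the 85 transcripts with si-PLANE.1, selected ones among them, beside 390 of all 57611. Without ENST00000571640, whose counts lie in the knockdown libraries alone, the CDK7 total with si-PLANE.2 turned from 0.89 to -0.0214 (chosen after seeing the data). Of 250 recomputed gene totals, 229 kept their sign. Limma on log2(FPKM + 1) moved the median of all genes with si-PLANE.2 to -0.22, with 3008 genes higher and 5105 lower, in place of 4506 and 4565, and called 7 of the 10 totals. The cause of these shifts was not tested. At 3 counts the depth limits what a listing at 0 can show.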
